A study of Mus musculus with 12 samples.

Results

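The 50 guidance genes described here are the measured members of 4 mouse gene families: the Eph receptors (13 genes), their ephrin ligands (8), the semaphorins (20) and the plexins (9). They were taken by name, as every gene with a single symbol beginning with Epha, Ephb, Efna, Efnb, Sema or Plxna to Plxnd and the family's numbering, out of 19938 genes on the array. This naming rule and the gene lists used below were set with earlier results of these data known. Of 51 mouse symbols that follow this naming, Ephb2 was not analysed here. Total RNA of 12 mouse cell samples was hybridised to 1-colour Affymetrix gene arrays, 3 per group. The control group, at day 0, consisted of undifferentiated iPSCs (induced pluripotent stem cells), reprogrammed cells that can form all germ layers. The other 3 groups were derived from iPSCs and taken at day 4: cells left to differentiate spontaneously, cells of an optimized cardiac differentiation, and cells from day 4 enriched by fluorescence-activated sorting for cardiac progenitors that carry both FLK1 and PDGFRα on their surface. The labels, in which some terms are not expanded and were not interpreted, spell out no strain, clone or reprogramming method. They do not explain what the optimized protocol added. They do not say either whether replicates were separate cultures, so the p-values reflect no more than the spread among these samples, and that spread may be technical.

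Eph receptors are tyrosine kinases that bind ephrins on the surface of neighbouring cells. Ephrin-A ligands are held by a lipid anchor and mostly bind EphA receptors, ephrin-B ligands span the membrane and mostly bind EphB receptors, and contact often makes cells repel or sort from each other. Semaphorins are secreted (class 3) or membrane-bound ligands that signal through plexins, and most class 3 members also need a neuropilin as co-receptor. Besides steering axons, these families act in the gastrulating embryo, in vessel growth and in the shaping of the heart.

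Values are log2 signals made by robust multi-array average (RMA), so a difference of 1 is a doubling of signal, and array replicates are given in the order 1, 2, 3. Signals of different genes come from different probes and were not ranked against each other. No background level was measured, so folds against dim genes may be understated. A gene was called when the limma fit over all genes gave a Benjamini-Hochberg adjusted p under 0.05 and an absolute log2 difference of at least 1. Differences carry the SE of that fit, which pooled the spread of all 4 groups. The RNA in each array came from a mixed population, in which fewer cells of a type and less RNA per cell cannot be told apart.

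Some libraries stood apart from their label. Kdr, which encodes FLK1, measured 5.5, 5.54 and 5.78 at day 0 and 9.83, 10.71 and 10.27 in spontaneous cells. Cardiac replicate 1 (5.42) and the libraries labelled sorted replicates 2 and 3 (6.25 and 6.03) lay near day 0, whereas cardiac replicates 2 and 3 (10.81 and 9.01) and sorted replicate 1 (10.23) did not. Pdgfra, which encodes PDGFRα, measured 8.75, 9.14 and 8.81 at day 0, 10.35, 10.0 and 9.71 in spontaneous cells, 9.42, 10.26 and 9.60 in cardiac cells and 11.13, 8.47 and 8.29 in the sorted libraries. Sorted replicates 2 and 3 were thus below day 0 in Pdgfra, and cardiac replicate 1 above it. Surface protein was not measured. Marker lists gave a mean level over 10 pluripotency genes of 10.55 to 10.86 at day 0, 8.34 to 8.89 in spontaneous cells, 8.31 to 9.25 in cardiac cells and 7.47 to 9.41 in the sorted libraries. Over 8 streak and nascent mesoderm genes it was 6.49 to 6.59, 8.69 to 9.06, 6.94 to 9.40 and 7.38 to 9.91 in the same order. Gate and cardiogenic mesoderm (11 genes) gave 6.73 to 6.82, 7.86 to 8.20, 7.11 to 7.99 and 6.70 to 7.98, and endoderm (7 genes) 6.03 to 6.17, 6.54 to 7.51, 7.85 to 8.51 and 6.45 to 7.48. Endothelial genes (7) stayed between 6.24 and 6.82 on every array, while neuroectoderm (7 genes) ran from 6.24 to 6.39 at day 0 and 5.49 to 6.12 at day 4, and fibroblast genes (7) from 6.71 to 7.24 and 6.20 to 6.57. The part of these cell mixtures in the results below was not tested, and cardiac and sorted differences of the members named with their array values are, for many, also given without the libraries that stood apart (cardiac replicate 1, sorted replicates 2 and 3). The fits that leave out several libraries were chosen after seeing the data. A fit with sorted replicate 1 alone assumes that this lone sample varies like the other groups.

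Most of the guidance genes called in spontaneous and cardiac cells were ligands with a higher signal than at day 0. Ligands were also the larger part of the 50 members, with 8 ephrins and 20 semaphorins. The sorted calls were Epha1 and Sema6a, both higher, and Sema4b, which was lower. In spontaneous cells 10 members rose and 1 fell against day 0, that is 11 of 50 beside 3.57% of all genes (1.99% higher and 1.57% lower). In cardiac cells 5 rose and 1 fell, beside 2.2% of all genes (1.26% and 0.943%). In the sorted libraries 2 rose and 1 fell, beside 2.11% (0.787% and 1.32%). Altogether 12 members were called at least once (4.4% of all genes): the ephrins Efna1, Efna2, Efna3, Efna5 and Efnb2, the Eph receptors Epha1, Epha2 and Epha7, and the semaphorins Sema4b, Sema4c, Sema5a and Sema6a. Only Epha1 and Sema6a were called in all 3 day 4 groups, which 1.29% of all genes were. The median difference of the 50 members was 0.17, 0.14 and 0.19 in spontaneous, cardiac and sorted cells, against -0.03, -0.05 and 0.03 over all genes, and the median absolute difference was 0.53, 0.38 and 0.36 against 0.16, 0.18 and 0.15. At an adjusted p under 0.05 with no minimum size, 19, 9 and 9 members passed, beside 9.75%, 6.17% and 5.11% of all genes. At an unadjusted p under 0.05, the count given below for classes with 0 calls, the members numbered 26, 22 and 19, beside 24%, 22.4% and 19.3% of all genes. The 3 comparisons share the day 0 arrays and are not independent of each other. In at least 1 group, 38 of the 50 members and 10848 of the 19938 genes had a mean of 6.6 or more, the median of all values. Among all genes at that level, which include some only through the group where they are high, 6.38%, 3.87% and 3.71% were called.

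These counts depended on single libraries. The spontaneous count of 11 became 3 without day 0 replicate 2 (2.66% of all genes), 4 without spontaneous replicate 2 (2.16%) and 7 without day 0 replicate 3 or spontaneous replicate 3 (3.27% and 2.55%). The cardiac count of 6 became 3 without cardiac replicate 2 or day 0 replicate 2 (1.48% and 1.55%). The sorted count of 3 became 9 without sorted replicate 3 (3.05% of all genes) and 10 without sorted replicates 2 and 3 (4.13%). Without cardiac replicate 1 and sorted replicates 2 and 3 the counts were 14, 14 and 12 in spontaneous, cardiac and sorted cells, beside 4.18%, 4.04% and 5.11% of all genes.

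**Figure D1:**
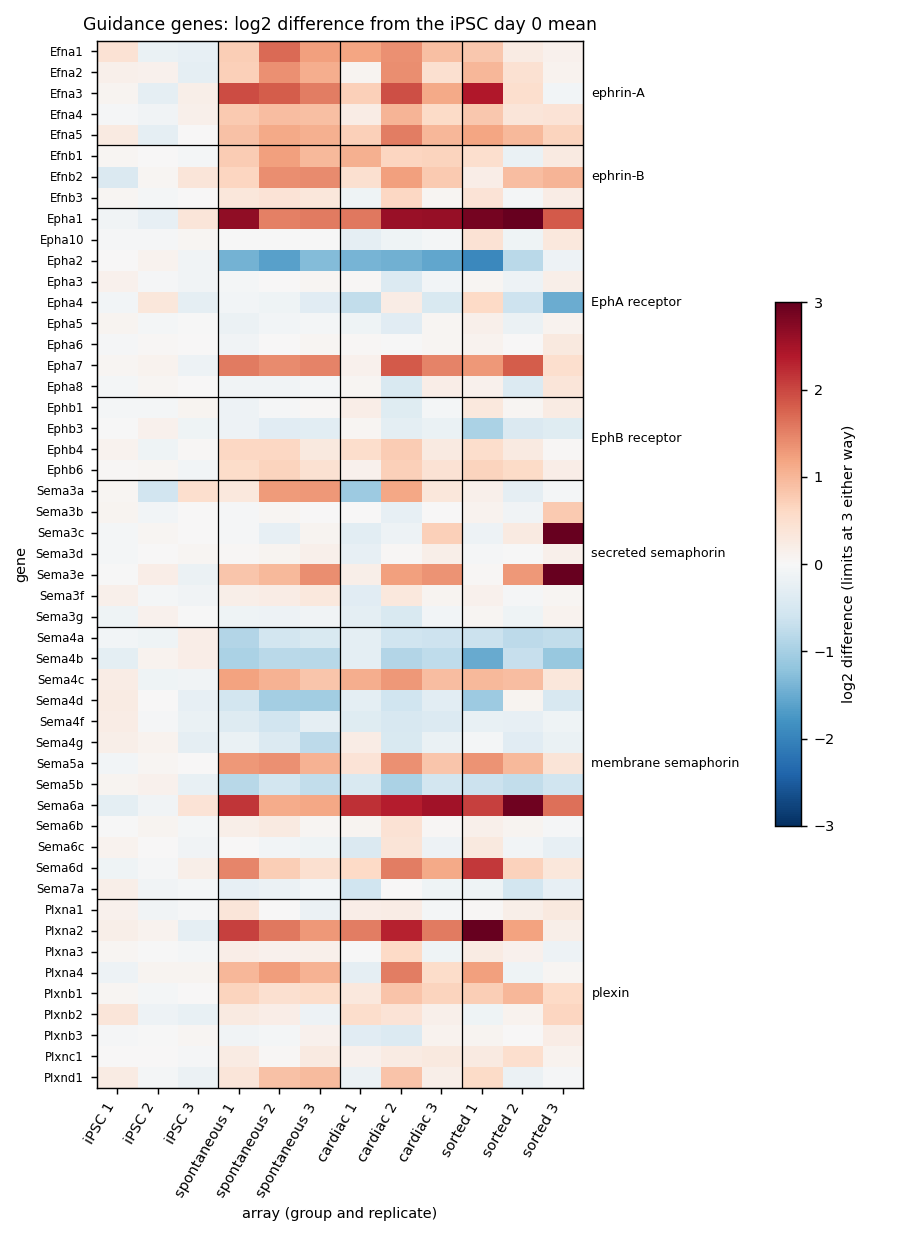
Difference of each array from the day 0 mean for all 50 guidance genes, grouped by class. Rows are genes, columns are the 12 arrays and colour is the log2 difference, limited at 3 either way. Among the 9 day 4 columns, the 5 ephrin-A genes are above the day 0 mean except Efna3 in sorted replicate 3. Epha1 and Sema6a are above it in all 9 and Epha2 is below it in all 9.

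Promoter sequences are shown for the genes called in at least 2 comparisons, except Sema6a, so that the sequence context of the most widely changed members can be read. They are the 250 bases before the annotated start in the RefSeq table of build GRCm38.p6, 5′ to 3′ on the gene's strand, with CpG dinucleotides in capitals. The windows are chr3:89280952-89281201 (minus strand) for Efna1, chr17:62881318-62881567 (minus) for Efna5, chr6:42373269-42373518 (minus) for Epha1, chr4:141300971-141301220 (plus) for Epha2 and chr1:36558382-36558631 (minus) for Sema4c. Efna1 and Sema4c each have 2 listed starts, of which the first is shown.
Efna1: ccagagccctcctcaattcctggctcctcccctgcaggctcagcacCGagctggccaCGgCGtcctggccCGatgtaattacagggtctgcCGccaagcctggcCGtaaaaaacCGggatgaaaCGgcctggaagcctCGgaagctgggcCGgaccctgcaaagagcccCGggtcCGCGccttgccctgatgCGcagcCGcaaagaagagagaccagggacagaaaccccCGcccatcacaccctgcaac
Efna5: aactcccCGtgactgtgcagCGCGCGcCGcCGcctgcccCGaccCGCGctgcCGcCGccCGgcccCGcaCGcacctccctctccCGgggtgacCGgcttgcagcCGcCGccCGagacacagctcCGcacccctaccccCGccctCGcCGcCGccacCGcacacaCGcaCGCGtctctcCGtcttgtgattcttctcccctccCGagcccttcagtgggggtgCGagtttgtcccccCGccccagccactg
Epha1: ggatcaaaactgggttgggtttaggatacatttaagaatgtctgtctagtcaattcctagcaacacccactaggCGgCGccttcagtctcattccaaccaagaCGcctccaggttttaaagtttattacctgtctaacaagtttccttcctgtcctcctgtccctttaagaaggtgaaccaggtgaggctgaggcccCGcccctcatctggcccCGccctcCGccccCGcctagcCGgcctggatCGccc
Epha2: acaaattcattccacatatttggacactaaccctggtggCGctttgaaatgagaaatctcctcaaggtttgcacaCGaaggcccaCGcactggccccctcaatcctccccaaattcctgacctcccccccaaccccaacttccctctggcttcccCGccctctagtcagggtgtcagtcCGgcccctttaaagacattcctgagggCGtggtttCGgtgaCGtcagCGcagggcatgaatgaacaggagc
Sema4c: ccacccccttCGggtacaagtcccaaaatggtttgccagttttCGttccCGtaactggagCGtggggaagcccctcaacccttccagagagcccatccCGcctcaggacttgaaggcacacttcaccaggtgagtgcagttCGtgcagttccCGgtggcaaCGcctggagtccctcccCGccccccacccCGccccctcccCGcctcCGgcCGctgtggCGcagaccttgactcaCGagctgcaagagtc

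The Efna5 promoter held 32 CpG dinucleotides, those of Efna1 and Sema4c 16 and 15, and those of Epha1 and Epha2 9 each. Of the 50 members 44 had a promoter in the table, with a median of 15.5 CpG dinucleotides against 6 over all 32851 promoters. On both strands of these windows, a T-box motif (AGGTGTGA) was found in 0 of the 44 and in 1.12% of all promoters, and a TCF/LEF motif (ATCAAAG) in 0 and 3.21%. The POU octamer (ATTTGCAT) was in 0 and 1.6%, and a GATA motif (AGATAA) in 2 (Efna4 and Epha3) and 9.99%. Members were counted once per gene, with a match at any listed start, whereas the shares count every listed promoter, so the units differ. A match is only a run of letters in this window.

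In spontaneous and cardiac cells the ephrin-A ligands were the class with the largest share of calls. In spontaneous cells 4 of the 5 rose and 0 fell, in cardiac cells 2 rose, and in the sorted libraries 0 were called. Over all genes 3.57%, 2.2% and 2.11% were called in the same order. In the sorted libraries 2 had an unadjusted p under 0.05 in the limma fit, beside 19.3% of all genes. The differences of all 5 from day 0 were above 0 in each group, with medians of 1.06, 1.08 and 0.53, also after median centring or cyclic loess. Efna1, Efna3 and Efna4 are neighbours on chromosome 3 with 0 protein-coding genes between them, so these ligands share a locus.

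Efna5, whose product is a ligand of several EphA receptors, measured 6.46, 5.92 and 6.21 at day 0, 7.07, 7.32 and 7.25 in spontaneous cells, 6.92, 7.73 and 7.19 in cardiac cells and 7.39, 7.17 and 6.87 in the sorted libraries. Each of the 9 day 4 arrays exceeded each day 0 array. It rose by 1.02 ± 0.21 in spontaneous cells (2.03-fold, adjusted p = 0.00990) and by 1.08 ± 0.21 in cardiac cells (2.12-fold, adjusted p = 0.00996) in the limma fit, and its sorted difference of 0.94 (adjusted p = 0.0205) stayed under the minimum size. The spontaneous call was lost without day 0 replicate 2 or spontaneous replicate 2 (0.88 to 0.97) and the cardiac call without day 0 replicate 2 or cardiac replicate 2 (0.86 to 0.95). The sorted difference was called without day 0 replicate 1 or sorted replicate 3 (1.08) and without sorted replicates 2 and 3 (1.19, adjusted p = 0.0306). The cardiac difference was 1.27 (adjusted p = 0.00388) without cardiac replicate 1.

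Efna1, another EphA ligand, measured 6.87, 6.25 and 6.19 at day 0, 7.18, 8.13 and 7.67 in spontaneous cells, 7.63, 7.82 and 7.33 in cardiac cells and 7.25, 6.68 and 6.58 in the sorted libraries. The spontaneous and cardiac arrays lay above every day 0 array, whereas sorted replicates 2 and 3 fell within the day 0 range. It rose by 1.22 ± 0.26 in spontaneous cells (2.33-fold, limma adjusted p = 0.0117) and by 1.15 ± 0.26 in cardiac cells (2.23-fold, adjusted p = 0.0218). The sorted difference was 0.40 (95% interval -0.16 to 0.96, adjusted p = 0.457), and 0.81 (adjusted p = 0.194) without sorted replicates 2 and 3. The spontaneous call was lost without day 0 replicate 2 or spontaneous replicate 2 (adjusted p = 0.0534 to 0.0626). The cardiac call was lost without day 0 replicate 2, day 0 replicate 3 or cardiac replicate 2 (adjusted p = 0.0778 to 0.0926), and was 1.14 (adjusted p = 0.0369) without cardiac replicate 1.

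Efna3, also an EphA ligand, measured 7.64, 7.29 and 7.74 at day 0, 9.51, 9.37 and 9.10 in spontaneous cells, 8.27, 9.49 and 8.68 in cardiac cells and 9.95, 8.07 and 7.48 in the sorted libraries. Its highest value was in sorted replicate 1, and sorted replicate 3 lay within the day 0 range. It rose by 1.77 ± 0.48 in spontaneous cells (3.42-fold, limma adjusted p = 0.0349). The cardiac difference was 1.26 (adjusted p = 0.145) and the sorted difference 0.94 (adjusted p = 0.312). Without sorted replicates 2 and 3 the sorted difference was 2.40 (adjusted p = 0.00406) and the cardiac difference passed too (adjusted p = 0.0123), as it did without sorted replicate 1 (adjusted p = 0.0160). Leaving out any 1 of the 6 arrays compared, or cardiac replicate 3, ended the spontaneous call (adjusted p = 0.0528 to 0.120).

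Efna2 measured 7.32, 7.27 and 6.87 at day 0, 7.88, 8.52 and 8.23 in spontaneous cells, 7.25, 8.54 and 7.64 in cardiac cells and 8.15, 7.60 and 7.27 in the sorted libraries. Cardiac replicate 1 and sorted replicate 3 lay within the day 0 range. It rose by 1.06 ± 0.31 in spontaneous cells (2.08-fold, limma adjusted p = 0.0458), a call lost without any 1 of the 6 arrays compared, without cardiac replicate 3 or sorted replicate 2 (adjusted p = 0.0547 to 0.181), and after median centring or cyclic loess. Its differences of 0.66 in cardiac and 0.52 in sorted cells did not pass (adjusted p = 0.225 and 0.399). They were 0.94 (adjusted p = 0.0769) without cardiac replicate 1 and 0.99 (adjusted p = 0.173) with sorted replicate 1 alone. Efna4, the remaining ephrin-A gene, was higher on all 9 day 4 arrays (7.87 to 8.67) than on the day 0 arrays (7.53 to 7.79). Its spontaneous difference of 0.87 passed the test at an adjusted p of 0.0127 but not the minimum size, and its cardiac and sorted differences were 0.61 and 0.53 (adjusted p = 0.0749 and 0.138). The cardiac one was 0.80 (adjusted p = 0.0200) without cardiac replicate 1, and the sorted one 0.80 (adjusted p = 0.0820) with sorted replicate 1 alone.

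The 3 ephrin-B ligands bind EphB receptors and can signal back into the cell that carries them. In the limma fit 1 rose in spontaneous cells and 0 were called in the other groups, beside 3.57%, 2.2% and 2.11% of all genes. An unadjusted p under 0.05 was reached by 2 in cardiac and 1 in sorted cells, beside 22.4% and 19.3% of all genes. Efnb2, best known from arterial endothelium, measured 6.55, 7.05 and 7.35 at day 0, 7.63, 8.38 and 8.41 in spontaneous cells, 7.47, 8.21 and 7.77 in cardiac cells and 7.18, 7.92 and 7.99 in the sorted libraries. Spontaneous and cardiac arrays lay above day 0, and sorted replicate 1 within it. The spontaneous rise was 1.15 ± 0.29 (2.23-fold, adjusted p = 0.0235), and missed the threshold when day 0 replicate 1 or 2, or spontaneous replicate 2 or 3, was left out (adjusted p from 0.0659 to 0.108). The differences of 0.83 in cardiac and 0.71 in sorted cells did not pass (adjusted p = 0.108 and 0.195). With sorted replicate 1 alone the latter was 0.19 (adjusted p = 0.812), and the cardiac one 1.01 (adjusted p = 0.0679) without cardiac replicate 1. In the fit without cardiac replicate 1 and sorted replicates 2 and 3 the cardiac difference was called (1.01, adjusted p = 0.0256).

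Efnb1 measured 7.37, 7.32 and 7.25 at day 0, 8.08, 8.53 and 8.29 in spontaneous cells, 8.38, 7.96 and 7.98 in cardiac cells and 7.81, 7.12 and 7.58 in the sorted libraries. Its differences of 0.99 ± 0.19 in spontaneous cells (limma adjusted p = 0.00659) and 0.79 ± 0.19 in cardiac cells (adjusted p = 0.0271) passed the test and stayed under the minimum size. The spontaneous one reached that size without day 0 replicate 1 or spontaneous replicate 1 (1.02 to 1.10) and, just, after median centring, and the cardiac one was 0.66 (adjusted p = 0.0643) without cardiac replicate 1. In the sorted libraries the difference was 0.19 (adjusted p = 0.656), and 0.50 (adjusted p = 0.199) with sorted replicate 1 alone. Every sorted array lay below every spontaneous and cardiac array, but the differences of -0.80 and -0.60 between these groups did not pass (adjusted p = 0.295 and 0.265). Efnb3 stayed between 6.72 and 7.46 on all arrays.

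**Figure D2:**
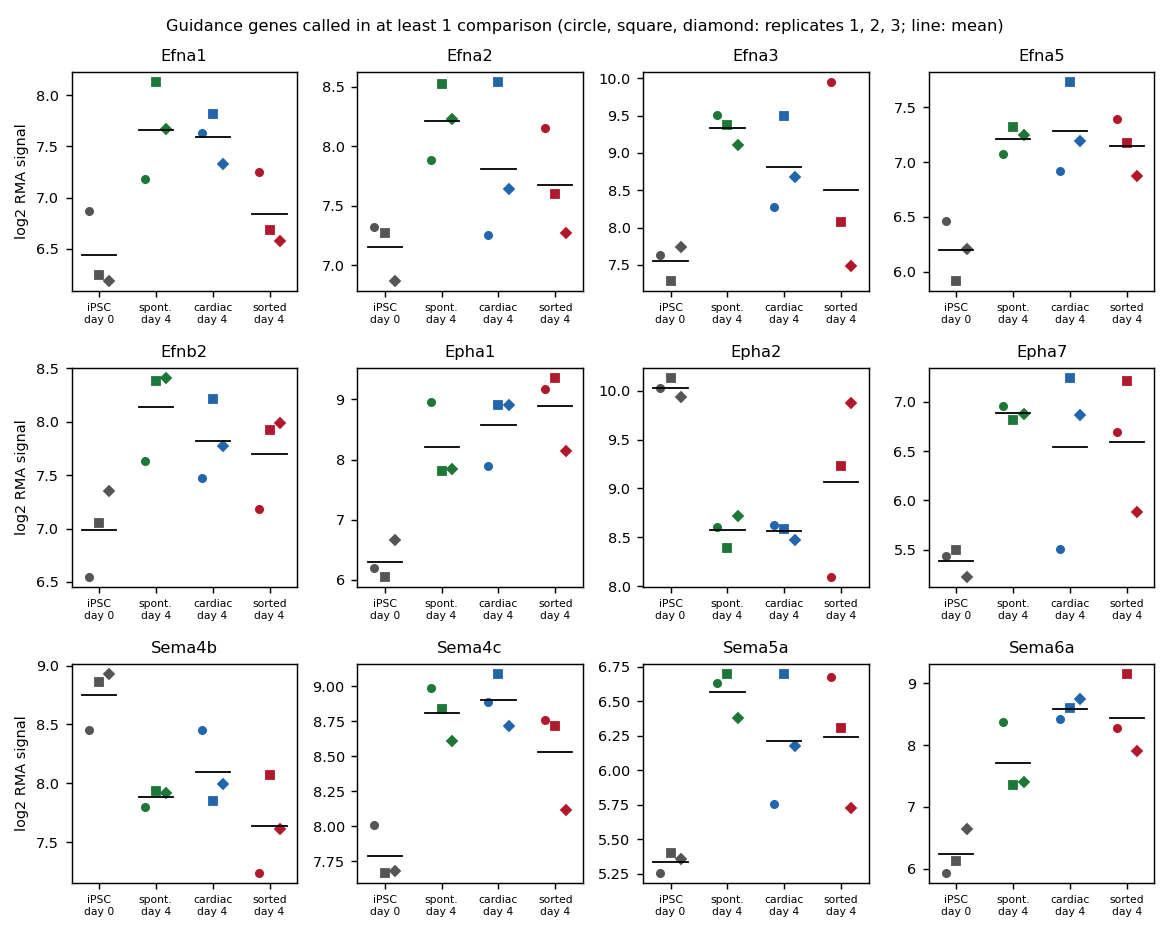
Log2 RMA signal of the 12 guidance genes called in at least 1 comparison (vertical axis, own scale per gene) in the 4 groups (horizontal axis); circle, square and diamond are replicates 1, 2 and 3 and the line is the group mean. Epha1, Sema6a and Efna5 have all day 4 arrays above day 0, while Epha2 in sorted replicate 3 (9.87) nears the day 0 arrays (9.93 to 10.13).

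Among the 9 EphA receptors, Epha1 and Epha7 rose and Epha2 fell in spontaneous cells. Epha1 rose and Epha2 fell in cardiac cells, and in the sorted libraries Epha1 alone was called. Epha1, whose product is an ephrin-A receptor found mainly in epithelia, measured 6.19, 6.05 and 6.66 at day 0, 8.96, 7.81 and 7.85 in spontaneous cells, 7.89, 8.90 and 8.91 in cardiac cells and 9.17, 9.36 and 8.15 in the sorted libraries. Every day 4 array exceeded every day 0 array by more than 1. The rise was 1.91 ± 0.38 in spontaneous cells (3.76-fold, limma adjusted p = 0.00851), 2.27 ± 0.38 in cardiac cells (4.82-fold, adjusted p = 0.00439) and 2.60 ± 0.38 in the sorted libraries (6.04-fold, adjusted p = 0.00226). All 3 calls held with any 1 array left out. The cardiac rise was 2.61 (adjusted p = 0.00161) without cardiac replicate 1, and without sorted replicates 2 and 3 the sorted rise was 2.87 (adjusted p = 0.00582). The difference between sorted and spontaneous cells was 0.69 (95% interval -0.13 to 1.51) and did not pass.

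Epha2, a receptor active in pluripotent and epithelial cells, measured 10.03, 10.13 and 9.93 at day 0, 8.61, 8.39 and 8.72 in spontaneous cells, 8.63, 8.59 and 8.47 in cardiac cells and 8.10, 9.23 and 9.87 in the sorted libraries. All day 4 arrays lay below all day 0 arrays, with the widest spread in the sorted libraries. It fell, with a difference of -1.46 ± 0.31 in spontaneous cells (2.74-fold lower, limma adjusted p = 0.0117) and -1.47 ± 0.31 in cardiac cells (2.76-fold lower, adjusted p = 0.0160), the latter also without cardiac replicate 1 (-1.50, adjusted p = 0.0239). The sorted difference of -0.96 did not pass (adjusted p = 0.101), but was called without sorted replicate 3 (-1.37, adjusted p = 0.00672) and without sorted replicates 2 and 3 (-1.93, adjusted p = 0.000299). The spontaneous call was lost without spontaneous replicate 2 (adjusted p = 0.0579) and the cardiac call without day 0 replicate 1 or 2 or cardiac replicate 2 or 3 (adjusted p = 0.0543 to 0.0652). The 10 pluripotency markers had mean levels of 7.47, 9.41 and 8.66 in sorted replicates 1, 2 and 3. Sorted replicate 1 was lowest in both, while replicate 3 had more Epha2 and a lower marker level than replicate 2. The part of these cells in the Epha2 values was not tested.

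Epha7, a receptor of ephrin-A ligands studied mostly in neural tissue, measured 5.44, 5.5 and 5.23 at day 0, 6.96, 6.81 and 6.87 in spontaneous cells, 5.51, 7.24 and 6.86 in cardiac cells and 6.69, 7.21 and 5.88 in the sorted libraries. Cardiac replicate 1 lay at the upper edge of day 0, and the other day 4 arrays above it. The rise was 1.49 ± 0.38 in spontaneous cells (2.81-fold, limma adjusted p = 0.0251) and was lost without any 1 of the 6 arrays compared (adjusted p = 0.0670 to 0.0782). The cardiac and sorted differences of 1.15 and 1.21 did not pass (adjusted p = 0.0917 and 0.0909). Both passed without cardiac replicate 1 (1.66 and 1.21, adjusted p = 0.00423 and 0.0133) and without sorted replicate 3 (adjusted p = 0.0489 and 0.0248). With sorted replicate 1 alone the sorted difference was 1.31 (adjusted p = 0.122), and it was called when cardiac replicate 1 was left out too (1.31, adjusted p = 0.000869). The mean level over the 7 neuroectoderm markers was 6.24 to 6.39 at day 0 and 5.49 to 6.12 at day 4. On every array 1 or 2 of them were above the median signal of all genes. The part of neural cells in the Epha7 values was not tested.

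The other 6 EphA genes were not called in any group. Epha4, a receptor that binds ephrins of both classes, had the widest range among them, from 6.62 in sorted replicate 3 to 8.72 in sorted replicate 1, around day 0 values of 7.86 to 8.47. Epha3, Epha5, Epha6, Epha8 and Epha10 had differences from day 0 between -0.15 and 0.20.

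None of the 4 measured EphB receptors was called against day 0 in the limma fit, though 2 had an unadjusted p under 0.05 in each comparison (24%, 22.4% and 19.3% of all genes did). Ephb4, the usual receptor of ephrin-B2 and known from venous endothelium, measured 8.21, 7.97 and 8.14 at day 0, 8.73, 8.72 and 8.41 in spontaneous cells, 8.62, 8.87 and 8.38 in cardiac cells and 8.64, 8.37 and 8.14 in the sorted libraries. The spontaneous and cardiac arrays lay above day 0, with differences of 0.51 each (adjusted p = 0.0767 and 0.0917). Ephb3 measured 8.68, 8.85 and 8.58 at day 0, 8.55, 8.36 and 8.39 in spontaneous cells, 8.76, 8.42 and 8.52 in cardiac cells and 7.77, 8.28 and 8.34 in the sorted libraries. Its sorted difference of -0.58 did not pass (adjusted p = 0.0646), although the sorted arrays lay below day 0. Ephb6, whose kinase domain is inactive, was higher on all 9 day 4 arrays, and its spontaneous difference of 0.55 passed the test (adjusted p = 0.0476) under the minimum size. Ephb1 stayed between 5.37 and 6.06.

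**Figure D3:**
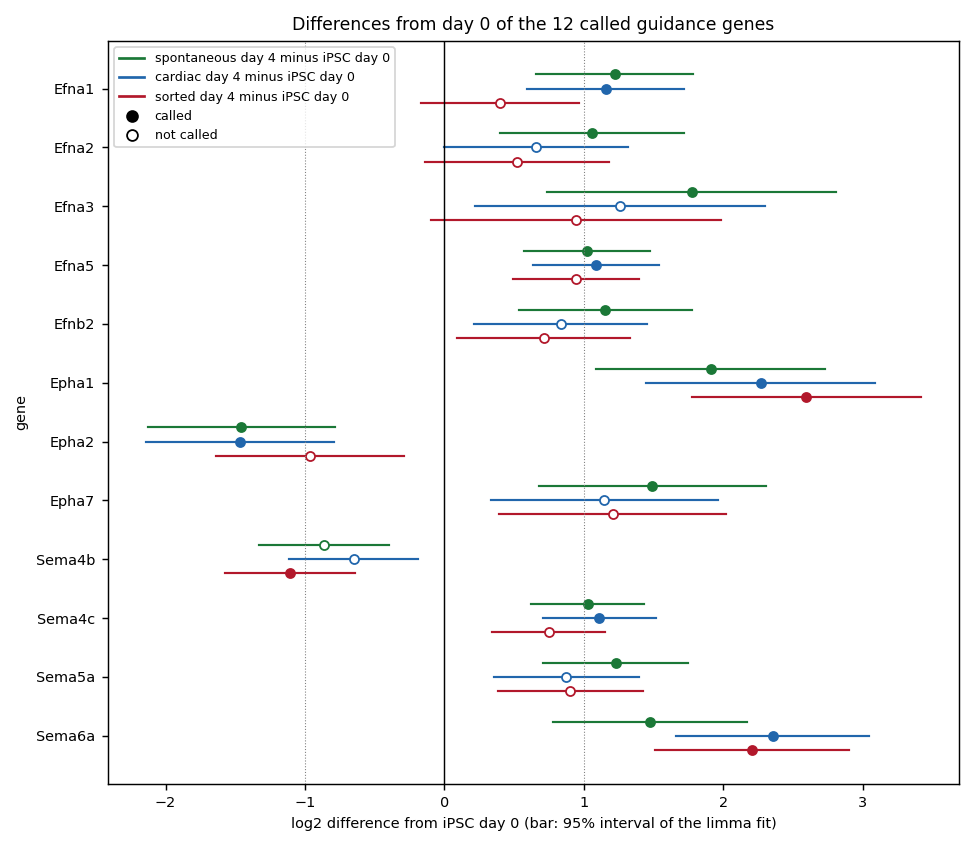
Log2 difference from iPSC day 0 (horizontal axis) of the 12 called guidance genes (vertical axis) in the 3 day 4 groups; bars are 95% intervals of the limma fit, filled points are called, and dotted lines mark a difference of 1 either way. Epha1 and Sema6a are filled in all 3 groups, and of the 5 ephrins 0 are filled in the sorted group.

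Among the 13 membrane-bound semaphorins, 3 rose and 0 fell in spontaneous cells and 2 rose and 0 fell in cardiac cells. The sorted libraries had 1 rise and 1 fall. These calls stand beside 3.57%, 2.2% and 2.11% of all genes in spontaneous, cardiac and sorted cells. Sema6a, a transmembrane ligand of class A plexins that can also act as a receptor, measured 5.94, 6.12 and 6.64 at day 0, 8.37, 7.36 and 7.40 in spontaneous cells, 8.42, 8.59 and 8.75 in cardiac cells and 8.28, 9.15 and 7.90 in the sorted libraries. All day 4 arrays lay above day 0. The rise was 1.47 ± 0.32 in spontaneous cells (2.78-fold, limma adjusted p = 0.0130), 2.35 ± 0.32 in cardiac cells (5.11-fold, adjusted p = 0.00136) and 2.21 ± 0.32 in the sorted libraries (4.62-fold, adjusted p = 0.00219). The cardiac rise was 2.44 (adjusted p = 0.00202) without cardiac replicate 1, and with sorted replicate 1 alone the sorted rise was 2.04 (adjusted p = 0.00870). The spontaneous call was lost without day 0 replicate 1 or 2 (adjusted p = 0.0523 to 0.0612). Every cardiac array exceeded every spontaneous array, but the difference of 0.88 (95% interval 0.19 to 1.57) did not pass after adjustment (adjusted p = 0.999).

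Sema6a had the smallest p of the moderated F test among the members. The 5 genes whose signal was most like it over the 12 arrays, by Pearson correlation, were Lrrc1 (0.964), Rida (0.962), Qser1 (0.958), Aldh9a1 (0.957) and Naf1 (0.954). These are descriptions of points that share the same libraries. The mean level of endoderm markers was higher on all day 4 arrays (6.45 to 8.51) than at day 0 (6.03 to 6.17), as Epha1 and Sema6a were. The same held for streak and nascent mesoderm markers (6.94 to 9.91 against 6.49 to 6.59). The part of such cells in these values was not tested.

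Sema4c, a ligand of plexin-B2, measured 8.01, 7.67 and 7.68 at day 0, 8.99, 8.84 and 8.61 in spontaneous cells, 8.89, 9.09 and 8.72 in cardiac cells and 8.76, 8.72 and 8.12 in the sorted libraries. All day 4 arrays lay above day 0. It rose by 1.03 ± 0.19 in spontaneous cells (2.04-fold, limma adjusted p = 0.00545) and by 1.11 ± 0.19 in cardiac cells (2.16-fold, adjusted p = 0.00459), and the sorted difference of 0.75 (adjusted p = 0.0360) stayed under the minimum size. The cardiac call held with any 1 array left out. The spontaneous difference dropped under the minimum size without day 0 replicate 2 or 3 or spontaneous replicate 1 (0.94 to 0.97) and after cyclic loess. With sorted replicate 1 alone the sorted difference was 0.98 (adjusted p = 0.0198).

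Sema5a, a semaphorin with thrombospondin repeats, measured 5.26, 5.40 and 5.36 at day 0, 6.63, 6.70 and 6.38 in spontaneous cells, 5.76, 6.70 and 6.18 in cardiac cells and 6.68, 6.31 and 5.73 in the sorted libraries. All day 4 arrays lay above day 0, with cardiac replicate 1 and sorted replicate 3 closest to it. The spontaneous rise was 1.23 ± 0.24 (2.34-fold, limma adjusted p = 0.00778) and held with any 1 array left out. The cardiac difference of 0.87 (adjusted p = 0.0501) was called without cardiac replicate 1 (1.10, adjusted p = 0.0151). The sorted difference of 0.90 (adjusted p = 0.0488) was called without sorted replicate 3 (1.16, adjusted p = 0.0104) and without sorted replicates 2 and 3 (1.34, adjusted p = 0.0161).

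Sema4b, a class 4 transmembrane ligand, measured 8.45, 8.86 and 8.93 at day 0, 7.80, 7.93 and 7.92 in spontaneous cells, 8.45, 7.85 and 7.99 in cardiac cells and 7.24, 8.07 and 7.61 in the sorted libraries. Cardiac replicate 1 reached the lowest day 0 value to 2 decimals, and the other day 4 arrays lay below day 0. It fell in the sorted libraries, with a difference of -1.11 ± 0.22 (2.16-fold lower, limma adjusted p = 0.0102). The differences of -0.86 in spontaneous cells (adjusted p = 0.0239) and -0.65 in cardiac cells (adjusted p = 0.0933) were not called. Without sorted replicate 1 the sorted difference shrank to -0.91 and was no longer called, with sorted replicate 1 alone it was -1.51 (adjusted p = 0.00540), and without day 0 replicate 1 the spontaneous one was called at -1.01 (adjusted p = 0.0325). The cardiac one was -0.83 (adjusted p = 0.0397) without cardiac replicate 1.

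Several other membrane semaphorins lay close to the limits of a call. Sema5b was below day 0 (7.0 to 7.36) on all day 4 arrays (6.26 to 6.76), with differences of -0.71, -0.66 and -0.66 in spontaneous, cardiac and sorted cells (adjusted p = 0.0118, 0.0245 and 0.0244). Sema4a likewise lay below day 0 on all day 4 arrays, and its spontaneous and sorted differences of -0.62 and -0.73 passed the test (adjusted p = 0.0170 and 0.0110) under the minimum size. Sema4d, a ligand of plexin-B1, had a spontaneous difference of -0.87 (adjusted p = 0.0479), which was called without spontaneous replicate 1 (-1.03, adjusted p = 0.0492). Its sorted difference of -0.50 (adjusted p = 0.312) was -1.10 with sorted replicate 1 alone. The Sema4d probe set used had means of 7.6 at day 0 and 6.73, 7.2 and 7.1 in spontaneous, cardiac and sorted cells. A second Sema4d probe set differed less, with 6.71 at day 0 and 6.51, 6.42 and 6.74 in the same order. Sema6d, a plexin-A1 ligand known from heart development, measured 5.66, 5.75 and 5.96 at day 0, 7.26, 6.52 and 6.28 in spontaneous cells, 6.38, 7.33 and 6.92 in cardiac cells and 7.91, 6.49 and 6.14 in the sorted libraries. It was higher on all 9 day 4 arrays, yet its differences of 0.90, 1.09 and 1.05 did not pass (adjusted p = 0.178, 0.120 and 0.152), and with sorted replicate 1 alone the sorted difference was 2.12 (adjusted p = 0.00757). Sema4f, Sema4g, Sema6b, Sema6c and Sema7a were not called in any group, with differences between -0.46 and 0.19.

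None of the 7 secreted class 3 semaphorins was called in any group by limma, and those with an unadjusted p under 0.05 numbered 0, 1 and 1 in spontaneous, cardiac and sorted cells, beside 24%, 22.4% and 19.3% of all genes. The most divided values were those of Sema3c and Sema3e in 1 library. Sema3c, a ligand of the cardiac outflow tract, measured 5.06, 5.49 and 8.65 in sorted replicates 1, 2 and 3, against 4.90 to 5.93 on the other 9 arrays. Sema3e, which binds plexin-D1 without a neuropilin, measured 6.31, 6.52 and 6.15 at day 0, 7.16, 7.30 and 7.73 in spontaneous cells, 6.51, 7.55 and 7.67 in cardiac cells and 6.36, 7.63 and 9.78 in the sorted libraries. Sorted replicate 3 was the highest array for both genes, and for Sema3b (7.25, against 6.23 to 6.59 elsewhere). The sorted differences of 1.19 and 1.59 for Sema3c and Sema3e did not pass (adjusted p = 0.362 and 0.169), and with sorted replicate 1 alone they were -0.15 and 0.03. In sorted replicate 3 the mean level of the fibroblast markers was 6.37 and that of the endothelial markers 6.52, inside the range of the other day 4 arrays. Among the day 4 arrays, it had the highest neuroectoderm level (6.12) and the lowest endoderm level (6.45). The part of cell mixture in the Sema3c and Sema3e values was not tested.

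Sema3a, the classical repellent of axons, ran from 4.95 in cardiac replicate 1 to 7.32 in spontaneous replicate 3. Its spontaneous difference of 0.96 did not pass (adjusted p = 0.217), and although every sorted array lay below every spontaneous array, neither did the difference of -1.03 between them (adjusted p = 0.412). The spontaneous difference of 1.06 for Sema3e missed the test as well (adjusted p = 0.323). Sema3f measured 7.76, 7.55 and 7.49 at day 0, 7.76, 7.82 and 7.91 in spontaneous cells, 7.26, 7.91 and 7.68 in cardiac cells and 7.73, 7.57 and 7.65 in the sorted libraries, all within 1 unit of each other. Sema3d and Sema3g had group differences between -0.28 and 0.09.

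None of the 9 plexins, the semaphorin receptors, was called against day 0 by limma, where 4, 2 and 3 had an unadjusted p under 0.05 in spontaneous, cardiac and sorted cells, beside 24%, 22.4% and 19.3% of all genes. Plxna2, a receptor for class 6 and, with neuropilins, class 3 semaphorins, measured 6.0, 5.92 and 5.54 at day 0, 7.88, 7.40 and 7.11 in spontaneous cells, 7.34, 8.14 and 7.37 in cardiac cells and 9.08, 7.03 and 5.99 in the sorted libraries. Sorted replicate 1 had the highest value and sorted replicate 3 lay within day 0, and the other day 4 arrays lay above it. The differences of 1.65, 1.80 and 1.55, each with an SE of 0.55, did not pass (adjusted p = 0.0808, 0.0735 and 0.138). They passed in all 3 groups without sorted replicate 3 (1.65, 1.80 and 2.24, adjusted p = 0.0209, 0.0190 and 0.0139). With sorted replicate 1 alone the sorted difference was 3.26 (adjusted p = 0.000870).

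Plxna4, another class A plexin, measured 6.11, 6.35 and 6.35 at day 0, 7.27, 7.52 and 7.31 in spontaneous cells, 6.0, 7.80 and 6.82 in cardiac cells and 7.51, 6.15 and 6.34 in the sorted libraries. Cardiac replicate 1 and sorted replicates 2 and 3, the libraries with Kdr near day 0, also had Plxna4 at day 0 levels. Its spontaneous difference of 1.10 did not pass (adjusted p = 0.0984), but passed without cardiac replicate 1 (adjusted p = 0.0401). The cardiac difference was 0.60 (adjusted p = 0.374), and 1.04 (adjusted p = 0.0920) without cardiac replicate 1. The sorted difference was 0.40 (adjusted p = 0.648), and 1.24 (adjusted p = 0.140) with sorted replicate 1 alone. In the fit without all 3 of those libraries both were called (adjusted p = 0.0106 and 0.0171). Plxnb1, the receptor of Sema4d, was higher on all 9 day 4 arrays (7.53 to 8.20) than at day 0 (7.15 to 7.26), with differences of 0.57, 0.61 and 0.77 that passed the test (adjusted p = 0.0339, 0.0345 and 0.0115) under the minimum size. With sorted replicate 1 alone the sorted value was 0.73 (adjusted p = 0.0511). Plxnb2, the receptor of Sema4c, measured 9.24, 8.73 and 8.65 at day 0, 9.14, 9.07 and 8.72 in spontaneous cells, 9.40, 9.29 and 9.03 in cardiac cells and 8.76, 8.99 and 9.53 in the sorted libraries, and the groups overlapped. Plxnd1, the receptor of Sema3e, had a spontaneous difference of 0.73 (adjusted p = 0.104) and smaller ones in cardiac and sorted cells (0.28 and 0.12). These were 0.51 (adjusted p = 0.257) without cardiac replicate 1 and 0.57 (adjusted p = 0.366) with sorted replicate 1 alone. Plxna1, Plxna3, Plxnb3 and Plxnc1 had differences between -0.21 and 0.30.

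**Figure D4:**
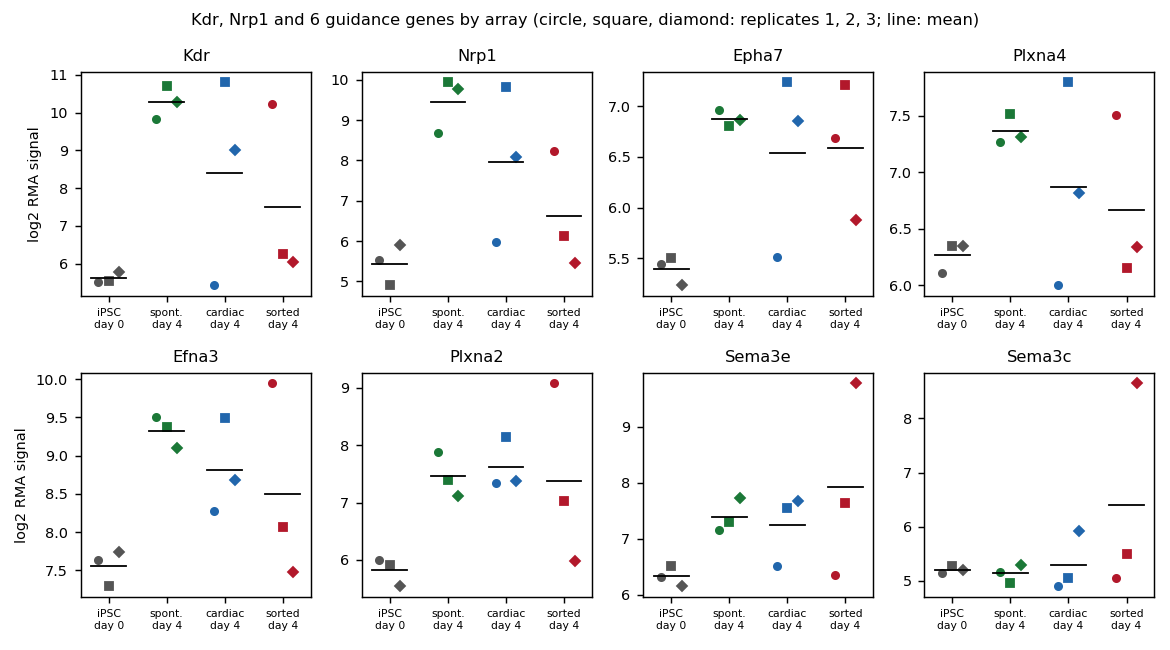
Log2 RMA signal (vertical axis, own scale per gene) of Kdr, the co-receptor gene Nrp1 and 6 guidance genes in the 4 groups (horizontal axis); circle, square and diamond are replicates 1, 2 and 3 and the line is the group mean. Kdr, Nrp1 and Plxna4 are near day 0 in cardiac replicate 1 and sorted replicates 2 and 3, and Sema3e and Sema3c peak in sorted replicate 3 (9.78 and 8.65).

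Co-receptors and intracellular partners of these families, a list of 59 genes of which 56 were measured, were set beside the members. In spontaneous cells 5 rose and 0 fell, with 1 rise in cardiac cells and 0 calls in the sorted libraries, beside 3.57%, 2.2% and 2.11% of all genes called. In the sorted libraries 13 partners had an unadjusted p under 0.05 in the limma fit, beside 19.3% of all genes. Nrp1, the co-receptor of class 3 semaphorins and of vascular endothelial growth factor, measured 5.54, 4.90 and 5.89 at day 0, 8.67, 9.94 and 9.76 in spontaneous cells, 5.98, 9.82 and 8.08 in cardiac cells and 8.24, 6.13 and 5.46 in the sorted libraries. Its spontaneous rise was 4.01 ± 0.82 (16.2-fold, adjusted p = 0.00995), and its differences of 2.52 in cardiac and 1.17 in sorted cells did not pass (adjusted p = 0.0917 and 0.496). Without cardiac replicate 1 the cardiac difference was called (3.51, adjusted p = 0.0103), and with sorted replicate 1 alone the sorted one was 2.80 (adjusted p = 0.134). With all 3 of those libraries left out the sorted difference was called too (2.80, adjusted p = 0.0107). Nrp1 and Kdr were near day 0 in the same 3 libraries. Nrp2 rose by 1.49 in spontaneous cells (adjusted p = 0.0481), and the cytoplasmic genes Farp1, Dpysl2 and Dpysl5 by 1.34, 1.59 and 1.25 (adjusted p = 0.00128, 0.00759 and 0.0425). Farp1, which encodes an exchange factor acting with class A plexins, also rose in cardiac cells (1.14, adjusted p = 0.00409), a call lost without cardiac replicate 2, when 0 partners were called there. The count in spontaneous cells dropped to 3 without any 1 of the day 0 arrays, without spontaneous replicate 2 or 3 or without cardiac replicate 3. Shares of all genes were 2.66% and 3.27% without day 0 replicate 2 or 3, and 2.16% and 2.55% without spontaneous replicate 2 or 3. Without cardiac replicate 1 the cardiac count became 4, and without sorted replicate 1 it became 2. The sorted count became 1 (Dpysl5) without cardiac replicate 1, cardiac replicate 2 or sorted replicate 3 (3.05% of all genes for the last). Without cardiac replicate 1 and sorted replicates 2 and 3 there were 6 spontaneous and 4 cardiac calls, beside 4.18% and 4.04% of all genes. The sorted count rose above 0 there too, resting on 1 sorted library.

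Arrays of different groups separated for many members even where the size or the test was not reached. In spontaneous cells 24 members had all arrays above and 8 all arrays below those of day 0, beside 41% of all genes (19.4% above and 21.6% below). In cardiac cells the numbers were 17 and 7, beside 29% (12.8% and 16.2%), and in the sorted libraries 11 and 6, beside 21.5% (10.2% and 11.3%). The 9 day 4 arrays were all higher than every day 0 array for 11 members (Efna4, Efna5, Epha1, Epha7, Ephb6, Plxnb1, Plxnc1, Sema4c, Sema5a, Sema6a and Sema6d), beside 4.65% of all genes. They lay below for 4 (Epha2, Sema4a, Sema4b and Sema5b), beside 5.15%.

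Between the day 4 groups 0 of the 50 members were called by limma, with 0% of all genes called when cardiac cells were set against spontaneous cells, 0% when the sorted libraries were set against cardiac cells and 0.00502% when they were set against spontaneous cells. At an unadjusted p under 0.05 there were 1, 6 and 5 members in this order, beside 3.73%, 15.7% and 11.6% of all genes. Arrays did not overlap for 2, 5 and 6 members, beside 8.99%, 13.1% and 19.6% of all genes. Replicates varied more within the cardiac and sorted groups than within the other groups, for the members and also over all genes. Cardiac arrays gave a median SD of 0.30 per member and 0.18 per gene, and sorted libraries 0.28 and 0.20. Lower values came from spontaneous arrays (0.14 and 0.096) and day 0 arrays (0.14 and 0.12). An SD over 1 was found for 1 member and 115 of the 19938 genes among cardiac arrays. Sorted libraries had 5 such members and 230 such genes. For Epha1 in sorted against cardiac cells the difference was 0.33, with an interval of -0.49 to 1.15, so a difference of 1 lay within it. Without cardiac replicate 1 and sorted replicates 2 and 3, Sema3e was lower in sorted replicate 1 than in cardiac cells (-1.26 ± 0.24, adjusted p = 0.0401, beside 0.577% of all genes called), and Plxna2 was higher in it than in spontaneous cells (1.62 ± 0.32, adjusted p = 0.0443, beside 0.552%).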

How the data were processed

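The deposited table held 35557 probe sets by 12 arrays, as log2 signals; per the submitters' processing notes, the authors used RMA in Expression Console 1.3.1 from Affymetrix. Log base 2 was inferred from RMA and the range of values (1.87 to 13.87), and array medians were 6.09 to 6.26. The sources used here do not give a genome build for the probes. RMA equalises array distributions, so a shift shared by most genes cannot be seen, and precision is limited by the number of arrays. Of the probe sets, 21789 had 1 gene symbol in the platform annotation, 1621 several and 12147 none listed. The probe set with the highest mean stood for each of 19938 genes (999 had more than 1, among them 4 members, Epha10, Ephb1, Sema4d and Sema6b).

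All arrays entered 1 limma model (limma 3.58.1, R 4.3.3; Python 3.11.15 for summaries) with a mean per group and an intensity trend in the prior variance (degrees of freedom: 8 residual, 5.01 prior). Two-sided p-values of 6 contrasts were adjusted by Benjamini-Hochberg over all genes, with a call at an adjusted p under 0.05 and an absolute difference of at least 1. Intervals cover 95%. The model was tested on simulated data with 200 changed genes. Array values were printed for called members and, per class, the member with the largest difference and the brightest one. Others close to a limit were named. Values of Ephb4, Plxna4 and Sema6d, and some of Sema3c, were printed outside this rule. Alternatives were a replicate block, no trend, the mean of probe sets, leaving out dim genes, median centring, cyclic loess, only the 6 arrays compared, no minimum difference and each array left out. The naming rule for the members and the gene lists were set with earlier results of these data known.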

Additional observations from a re-analysis of the deposited data

How the results depend on the processing

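No difference of a named member that was called with all arrays changed direction under any alternative. Between day 4 groups, where no member was called with all arrays, Sema3e (sorted against cardiac) and Plxna2 (sorted against spontaneous) did change direction. This was in the fit without cardiac replicate 1 and sorted replicates 2 and 3. Under median centring and cyclic loess, the members whose sign changed had reported differences of at most 0.10. The counts of guidance genes against day 0 (11 in spontaneous, 6 in cardiac and 3 in sorted cells) ranged from 3 to 13, 3 to 9 and 3 to 9 with 1 array left out, and counts between day 4 groups stayed at 0. Without the minimum difference they were 19, 9 and 9, beside 9.75%, 6.17% and 5.11% of all genes. Without sorted replicates 2 and 3 the sorted count was 10, and without these and cardiac replicate 1 the cardiac and sorted counts were 14 and 12, with 1 call each for sorted against cardiac and sorted against spontaneous cells (both chosen after seeing the data). Partner counts (5, 1 and 0) ranged from 3 to 6, 0 to 4 and 0 to 1 with 1 array left out, and were 15, 6 and 4 without the minimum difference. Cyclic loess gave 3 spontaneous and 1 sorted partner calls. Sorted partner calls also rose from 0 when sorted replicates 2 and 3 were left out, which leaves 1 sorted array. With cardiac replicate 1 left out too, there were 4 cardiac partner calls, beside 4.04% of all genes. The cause of these changes was not tested. Deviations of same-numbered arrays correlated at -0.38 to 0.31, those of others at -0.47 to 0.30. With only 3 arrays per group, these values cannot decide whether replicate numbers pair the samples. With the replicate number as a block the guidance counts were 11, 7 and 3 and the spontaneous partner count 3. Dim genes limit what can be read: 12 members had a mean under 6.6 in every group, and no background level was measured for them.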

Other observations

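Of 22 listed guidance genes of other families (netrins, Slits and their receptors among them), 21 were measured. In spontaneous cells 2 rose and 0 fell, in cardiac cells 1 rose, and in the sorted libraries 2 rose, beside 3.57%, 2.2% and 2.11% of all genes called. Unc5b, a netrin receptor, measured 7.59, 7.03 and 7.19 at day 0, 8.67, 9.28 and 9.08 in spontaneous cells, 8.52, 9.01 and 8.59 in cardiac cells and 7.94, 8.77 and 8.68 in the sorted libraries. All its day 4 arrays lay above day 0, with rises of 1.74, 1.44 and 1.19 (limma adjusted p = 0.00121, 0.00441 and 0.0124). The cardiac rise was 1.53 (adjusted p = 0.00513) without cardiac replicate 1, and with sorted replicate 1 alone the sorted difference was 0.67 (adjusted p = 0.185) and no longer called. Slit3, which encodes a secreted ligand of Robo receptors, measured 6.35, 6.71 and 6.19 at day 0 and 8.29, 8.28 and 7.69 in the sorted libraries. The sorted rise was 1.67 ± 0.34 (limma adjusted p = 0.0127), and 1.87 with sorted replicate 1 alone. Slit3 also measured 8.01, 7.39 and 7.22 in spontaneous cells and 6.56, 8.07 and 7.81 in cardiac cells, where it was not called. Unc5c rose by 1.40 in spontaneous cells (adjusted p = 0.0316), where its arrays measured 6.09, 7.89 and 7.17 against 5.47 to 5.80 at day 0.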
